A study of Mus musculus with 144 samples.

Results

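The genes described here encode the subunits of the proteasome, as read in single microglia of the mouse retina. They were chosen by name: every protein-coding gene of the table whose symbol starts with Psma, Psmb, Psmc, Psmd or Psme, without the inducible catalytic subunits Psmb8 and Psmb9. The rule gave 43 genes of 21846 protein-coding genes, out of 55364 genes in all. The chosen names held 31 subunits of the standard particle, 14 of the core and 17 of the regulatory particle. Regulatory particle subunits with other names, such as Adrm1, are not among the 17. The other members were the base assembly chaperones Psmd5, Psmd9 and Psmd10, the activators Psme1, Psme2, Psme2b, Psme3 and Psme4, and the core subunits Psma8, Psmb10 and Psmb11, which are restricted to certain tissues or inducible. Psmc3ip was taken in by its name only, since it encodes a recombination factor and no subunit. The name "constitutive" does not describe Psmb10, Psme1 and Psme2, whose expression is induced by interferon.

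The proteasome degrades proteins that are tagged with ubiquitin. Its core is a barrel of outer rings of alpha subunits and inner rings of beta subunits, and the beta subunits encoded by Psmb5, Psmb6 and Psmb7 carry the cutting sites. A regulatory particle caps the core: its ring of ATPases (Psmc genes) unfolds the substrate and threads it in, while the base and lid subunits (Psmd genes) bind ubiquitin chains and remove them. In immune cells such as microglia, Psmb8, Psmb9 and Psmb10 can replace the standard catalytic subunits, and the particle then supplies peptides for MHC class I.

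The cells came from the retina of Iba1-EGFP mice, a strain that marks microglia and other macrophages with a green fluorescent protein, and were sorted singly by FACS. There were 48 cells in each of 3 groups, 16 on each of 3 plates: mice given PBS and aged 10 to 14 weeks, mice given ripasudil at 1 mg/kg and aged 14 weeks, and mice given ripasudil at 10 mg/kg and aged 12 weeks. Ripasudil is a kinase inhibitor, and the study compared its vehicle with these doses in Iba1-positive cells. The series title refers to optic nerve injury, and the labels do not say which retinas had one. All groups carried the same reporter strain, and the reporter labels other macrophages of the retina as well as microglia. No animal is named in the labels, and each group therefore counted as 1 sample: no test between groups could be made, and the cells of a group are not replicates of a treatment. Age differed between the groups and each group had its own wells on every plate, so dose, age and well cannot be told apart.

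Cells were kept where 1000 genes or more reached an FPKM of 1, which left 46 PBS cells, 47 cells at 1 mg/kg and 47 cells at 10 mg/kg. FPKM scales the reads of a gene to its length and to the reads assigned in the cell. Assigned reads per cell were not measured directly but inferred from FPKM and gene length, as described with the processing. They ranged from 30204 to 4668733, with a median of 1626283 in PBS cells, 1801902 at 1 mg/kg and 1423327 at 10 mg/kg. Of the microglia markers, Csf1r and C1qa were found in each of the 140 cells, Aif1 in 137, Cx3cr1 in 134, Tmem119 in 124, and P2ry12 and Trem2 in 109 each. At least 3 of 10 rod photoreceptor markers were found in 8 PBS cells, 8 cells at 1 mg/kg and 11 cells at 10 mg/kg, with median summed FPKM of 1.03, 0.631 and 1.68 and highest sums of 291, 4951 and 18906. At least 3 of 8 neutrophil markers were found in 4, 5 and 5 cells of these groups. The median sums were 0 and the highest sums 80994, 124990 and 78017 FPKM. Camp and Elane were at 0 throughout, and Ly6g and Ngp at 0 in PBS cells and at 10 mg/kg. Of the 8 markers, 3 were found in any PBS cell, 6 at 1 mg/kg and 3 at 10 mg/kg. At least 3 Muller glia markers were found in 3, 3 and 4 cells and at least 3 border macrophage markers in 3, 4 and 3 cells, with highest sums of 28840 and 5754 FPKM. The Muller glia list includes Apoe, and its sum was above 0 in every cell, with a lowest of 0.480 and a median of 82.0 FPKM. A high sum of this list is therefore no mark of Muller glia transcripts by itself. The part of these transcripts in the results was not tested.

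Detection varied widely among the subunits, also among those of a single role. A gene is called detected where its FPKM in that cell is at least 1, and shares of cells are given with exact Clopper-Pearson 95% intervals, which cover counting error only. Psmb6, the catalytic subunit that cuts after acidic residues, was the most widely detected member, in 84.3% of the 140 cells. Psmb2, a non-catalytic beta subunit, followed at 82.1%, and Psme2, the beta subunit of the interferon-inducible activator, at 80.0%. Among catalytic subunits Psmb7, which cuts after basic residues, was lowest at 33.6%, while Psmb5, which cuts after hydrophobic residues, was at 70.7%. In the alpha ring, detection ran from 44.3% for Psma4 to 67.9% for Psma7, and in the ATPase ring from 42.9% for Psmc6 to 62.1% for Psmc5. The non-catalytic beta subunits ranged from 45% for Psmb4 to the value of Psmb2. Lid subunits were detected in fewer cells, from 24.3% for Psmd11 to 48.6% for Psmd14, the deubiquitinase that removes ubiquitin chains at the entry of the particle. The base ranged from 36.4% for Psmd4, a ubiquitin receptor, to 52.1% for Psmd2, a large scaffold that docks ubiquitin-like domains.

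The lowest shares were found among members outside the standard particle. Psmb11, the thymus-specific catalytic subunit, was found in 1.43% of cells and Psma8, the testis-specific alpha subunit, in 2.14%. Psme4, an activator of a single large chain, was found in 5.71%. The chaperones Psmd5, Psmd9 and Psmd10 were detected in 12.1%, 13.6% and 22.9% of cells. Gene length went with detection across the 43 members (Pearson's r = -0.55, a description over genes that share the same libraries), so longer members were found in fewer cells. FPKM is scaled to length, so a longer gene needs more reads to reach the limit of detection. The part of this limit in the relation was not tested. A comparison between groups was made for genes detected in 25% or more of the 140 cells, a filter that does not look at the group. It kept 3716 genes, 35 of them members. Psmd11, Psmd5, Psmd9, Psmd10, Psme4, Psma8, Psmb11 and Psmc3ip were left out by it.

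**Figure D1:**
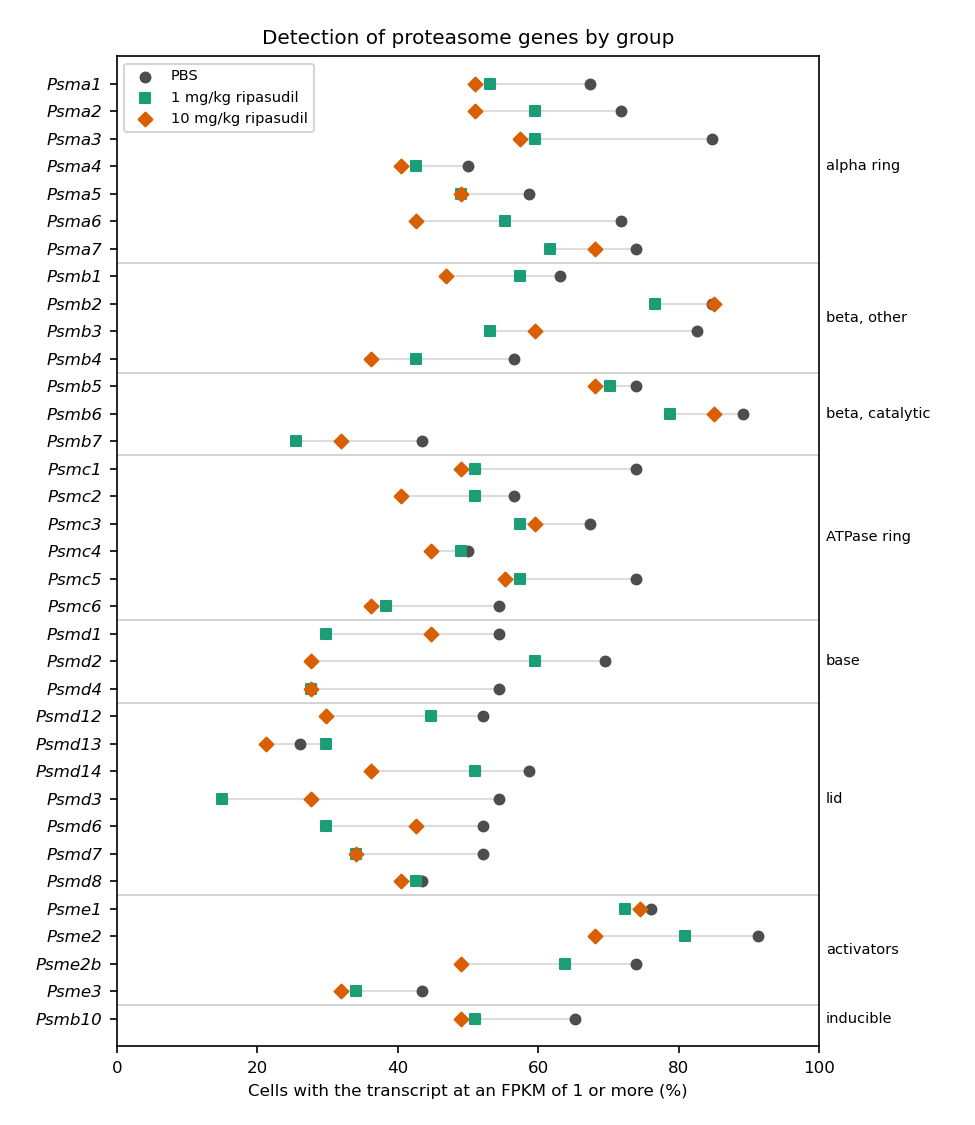
Share of cells (percent, x axis) in which each of the 35 compared proteasome genes was detected, with circles for PBS, squares for 1 mg/kg and diamonds for 10 mg/kg ripasudil. The PBS point lies farthest right for most genes, Psmb2 and Psmd13 being exceptions, and the longest lines are those of Psmd2 and Psmd3.

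A single library rarely held the whole particle. The number of members detected in a cell had a lowest value of 5, a median of 24 and a highest of 40 in PBS cells. At 1 mg/kg these were 3, 16 and 39, and at 10 mg/kg they were 3, 16 and 37. The ranges overlapped almost entirely, while both ripasudil medians lay below that of PBS. Both doses lay below PBS on each plate: the PBS medians were 21.5, 26.5 and 21 on plates 1 to 3, the medians at 1 mg/kg 14, 19 and 13.5, and those at 10 mg/kg 17, 15.5 and 13. Counting only members at an FPKM of 10 or more, the medians were 17, 11 and 8 for PBS, 1 mg/kg and 10 mg/kg.

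All 14 standard core subunits were found together in 9 of 140 cells, 5 of them PBS, 2 at 1 mg/kg and 2 at 10 mg/kg. All 7 alpha subunits were found in 11 PBS cells (23.9%, 95% interval 12.6 to 38.8), 2 cells at 1 mg/kg (4.26%, 0.520 to 14.5) and 3 cells at 10 mg/kg (6.38%, 1.34 to 17.5). The complete alpha ring was thus read mostly in PBS cells, in intervals that overlap. PBS cells also had more detected genes, as given below, and complete sets of other genes were not counted. All 17 regulatory particle subunits with a chosen name were found in 2 PBS cells, 1 cell at 1 mg/kg and 0 of 47 cells at 10 mg/kg. At 10 mg/kg a limit of 3 counts allows a share of up to 6.38%, and the exact interval ends at 7.55%. Adrm1, a subunit outside the chosen names, was not counted here and was detected in 39.3% of the 140 cells. Core and regulatory subunits were detected together: their numbers per cell correlated at r = 0.78 over 140 cells, a description of values that share each cell's library.

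**Figure D2:**
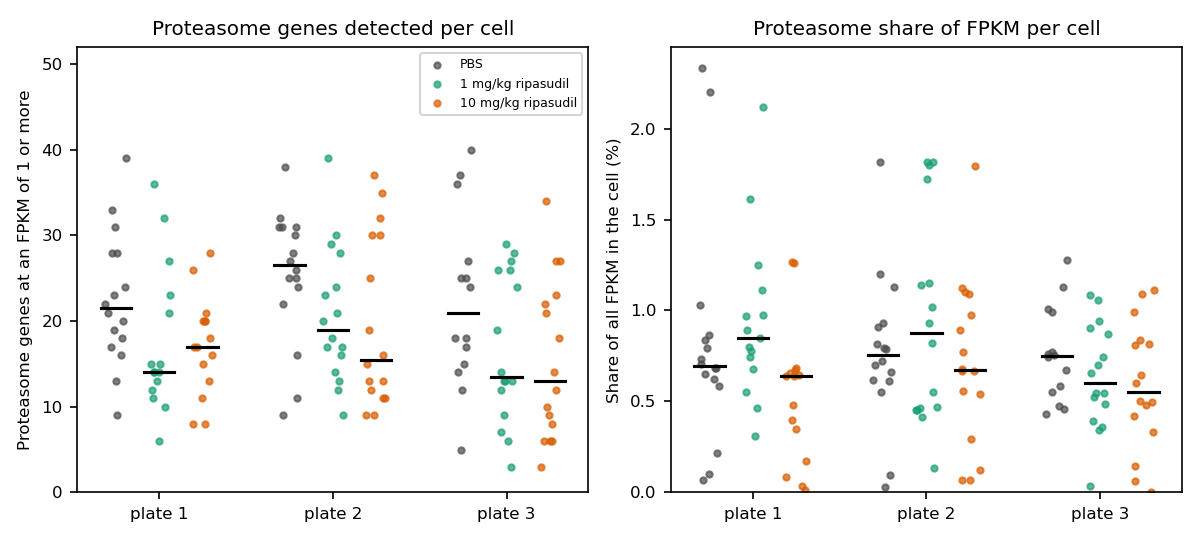
Number of detected proteasome genes (left) and summed FPKM of the 43 proteasome genes as a percent of all FPKM (right) in each cell, by plate and group, with 1 point a cell and a black bar at the median. The bars of both doses lie below PBS in the left panel on all 3 plates, and in the right panel the 1 mg/kg bar lies above PBS on plates 1 and 2.

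The number of members moved with the number of all genes found in a cell. The median number of detected genes was 3143 in PBS cells, 2418 at 1 mg/kg and 2264 at 10 mg/kg. Over 140 cells, genes and members correlated at r = 0.85, again a description, since both are counts from the same library. Per 1000 genes detected, the median number of members was 6.86 in PBS cells, 6.27 at 1 mg/kg and 6.79 at 10 mg/kg, so the PBS cells stood out less on this scale. In cells with 1000 to 1999 genes, the median number of members was 15.5 in 8 PBS cells, 12 in 19 cells at 1 mg/kg and 10 in 21 cells at 10 mg/kg. With 2000 to 2999 genes it was 19, 16.5 and 15.5. In the bin of 3000 to 4499 genes the order was not kept, with 25, 24 and 26.5. In cells with 4500 genes or more, the medians were 32, 28 and 32. Below 3000 genes the medians of PBS cells were thus the highest, and from 3000 genes on those of PBS and 10 mg/kg lay close. Each cell was also thinned to 300000 reads, leaving out 5, 1 and 3 shallower cells of PBS, 1 mg/kg and 10 mg/kg. A member then counted from 1 read on, not from an FPKM of 1, and the medians were 25, 19.5 and 17 members. These medians are thus no depth-matched form of the counts above.

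**Figure D3:**
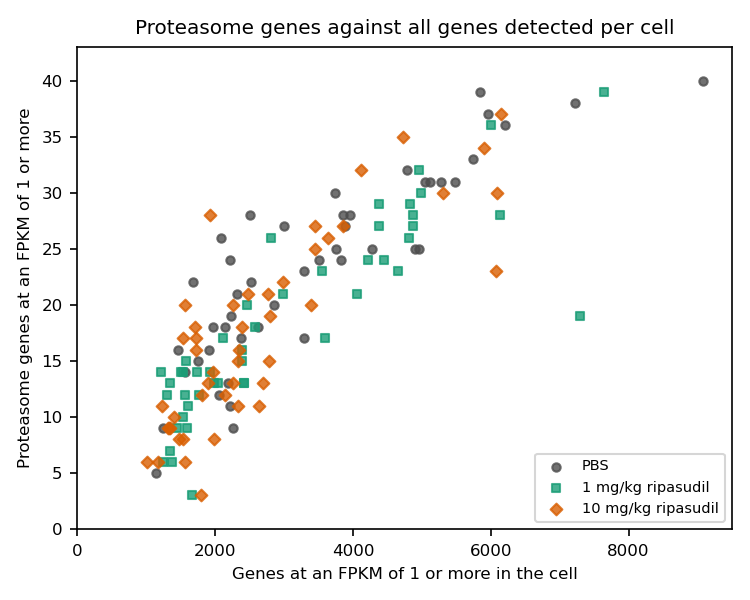
Number of detected proteasome genes (y axis) against the number of all detected genes (x axis), with 1 point a cell and marks by group. Both numbers climb together in every group (r = 0.85 over 140 cells), and ripasudil cells fill the lower left corner, with 19 cells at 1 mg/kg and 21 at 10 mg/kg under 2000 genes against 8 PBS cells.

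The members' summed level gave another order. The 43 genes took a median of 0.727% of all FPKM in PBS cells, 0.780% at 1 mg/kg and 0.641% at 10 mg/kg. On plates 1 to 3 the medians were 0.696, 0.755 and 0.751% for PBS, 0.849, 0.876 and 0.602% at 1 mg/kg, and 0.640, 0.672 and 0.553% at 10 mg/kg. The high dose lay below PBS on each plate, and the low dose lay above it on plates 1 and 2 and below it on plate 3. The distribution of values over cells was set beside this share. Of all values of the 35 compared genes, 47.6% were at an FPKM of 10 or more in PBS cells, 38.3% at 1 mg/kg and 30.1% at 10 mg/kg. The median of those values was 116 FPKM in PBS cells, 134 at 1 mg/kg and 162 at 10 mg/kg. Over all compared genes the shares were 36.1, 33.1 and 28.1% in the same order and the medians 68.9, 77.2 and 87.5 FPKM. Values of 10 or more were thus fewer and had a higher median under ripasudil both for the members and over all compared genes.

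At 1 mg/kg, most proteasome genes had a lower mean than in PBS cells, led by the lid subunit Psmd3, the beta subunit Psmb3 and the ATPase Psmc5. Differences are of the mean log2(FPKM + 1), which depends on how many cells detect a gene as well as on its level. Such a difference can have another sign than the ratio of mean FPKM, as given below. Of the 35 compared members, 29 were lower at 1 mg/kg, against 62.6% of all compared genes. A difference of -1 or less was reached by 6 members, against 6.40% of all compared genes, and none reached 1, against 0.646%. The median difference of the members was -0.55, and that of all compared genes -0.15. On plates 1 to 3 the members' medians were -0.27, -0.67 and -0.79. On all 3 plates 12 members were lower and none was higher, against 22.2% and 8.05% of all compared genes.

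Psmd3 (ENSMUSG00000017221, chr11:98682554-98695979, plus strand, GRCm38), a scaffold of the lid, had a lowest, median and highest FPKM of 0, 1.88 and 505 in PBS cells, 0, 0.0757 and 91.6 at 1 mg/kg, and 0, 0.146 and 703 at 10 mg/kg. It was detected in 25 PBS cells (54.3%, 39 to 69.1), 7 cells at 1 mg/kg (14.9%, 6.2 to 28.3) and 13 cells at 10 mg/kg (27.7%, 15.6 to 42.6). The interval at 1 mg/kg lay below that of PBS, for the member picked as lowest at this dose. How many of all compared genes separate in this way was not counted. On plates 1 to 3 the detecting cells numbered 9, 8 and 8 for PBS and 2, 3 and 2 at 1 mg/kg. Psmd3 was named among members with 1 sign on all 3 plates, so agreement between plates is no added support. The difference from PBS was -2.05 at 1 mg/kg and -1.23 at 10 mg/kg. The Psmd3 model overlaps that of Gm12356, and reads of overlapping genes may not be separable here.

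Psmb3, a non-catalytic beta subunit, came next at 1 mg/kg, with -1.41 and detection in 25 cells against 38 PBS cells, but processed copies of this gene are in the table and may share its reads. Psmc5 followed with -1.32, of which plate 3 carried the most (-3.67, against -0.43 on plate 1 and -0.10 on plate 2), and without plate 3 it was -0.22. In cells with at least 2000 genes Psmc5 was at 0.40, the other direction. Psma7, an alpha subunit, differed by -1.24 with near-equal values on the plates, -1.23, -1.20 and -1.33, and was at -0.09 in cells with at least 2000 genes. The lid subunit Psmd7, the partner of the deubiquitinase, was at -1.14 and the ubiquitin receptor Psmd4 at -1.0. The next among members lower on all plates were the ATPase Psmc1 (-0.95), the activator subunit Psme2 (-0.89), the alpha subunit Psma6 (-0.83) and the catalytic subunit Psmb7 (-0.73). The members with a positive difference at 1 mg/kg were Psma4, Psmb1, Psmb5, Psmc2, Psmd14 and Psme1, with 0.26 at most. Without plate 3 Psmd4 was at -0.61, and as a log2 ratio of mean FPKM it was at 0.32, the other direction.

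**Figure D4:**
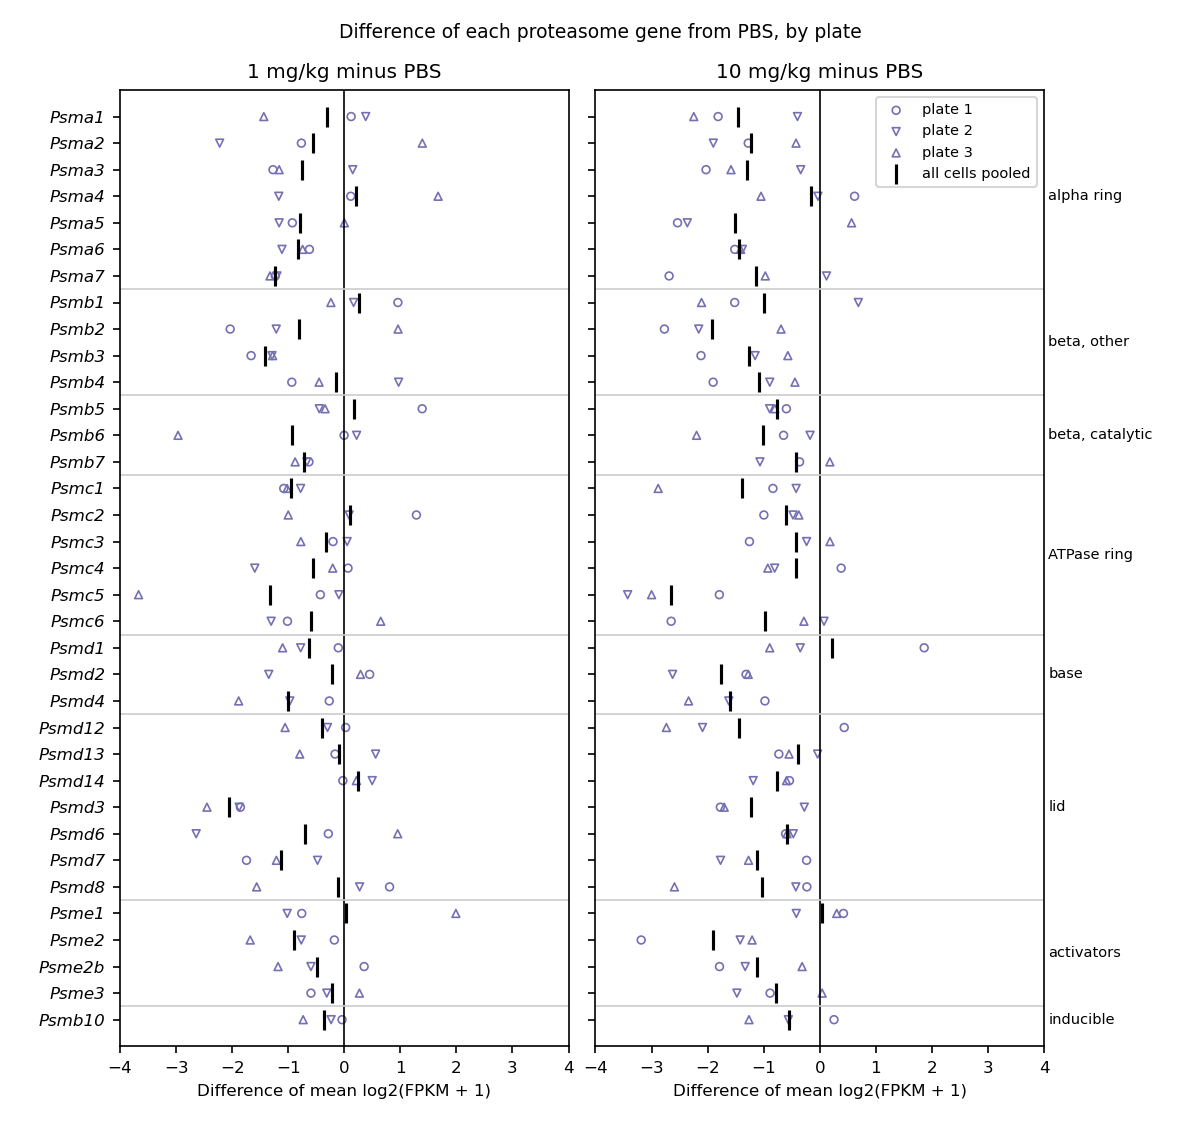
Difference of mean log2(FPKM + 1) from PBS for each of the 35 compared proteasome genes at 1 mg/kg (left) and 10 mg/kg (right), with open marks for plates 1 to 3 and a black bar for all cells pooled. Bars lie left of 0 for 29 genes at 1 mg/kg and for 33 genes at 10 mg/kg, and the marks of single plates scatter by more than the bar's distance from 0 for many genes.

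At 10 mg/kg the differences from PBS were larger, with the ATPase Psmc5 lowest, followed by the beta subunit Psmb2 and the activator subunit Psme2. Of 35 members 33 were lower, against 79.3% of all compared genes, and 20 were lower by 1 or more, against 16.9%. None was higher by 1 or more, against 0.0538% of all compared genes. The members' median was -1.09 and that of all compared genes -0.41. On plates 1 to 3 the members' medians were -1.0, -0.80 and -0.93. On all 3 plates 22 members were lower, against 38.6% of all compared genes, and none was higher, against 3.39%.

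Psmc5 (ENSMUSG00000020708, chr11:106256154-106263120, plus strand) had a lowest, median and highest FPKM of 0, 80.9 and 4304 in PBS cells, 0, 1.63 and 1987 at 1 mg/kg, and 0, 1.38 and 1579 at 10 mg/kg. An FPKM of 10 or more was reached in 26 PBS cells, 20 cells at 1 mg/kg and 9 cells at 10 mg/kg. The groups overlapped below the highest ripasudil value, PBS cells reached higher, and the medians of both doses lay near the limit of detection. The difference from PBS at 10 mg/kg was -2.66, with -1.79, -3.43 and -3.00 on plates 1 to 3, and no other compared gene of the table had a lower value. It was -1.97 as the log2 ratio of mean FPKM and -1.86 with a linear term for detected genes.

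Psmb2 (ENSMUSG00000028837, chr4:126677630-126709714, plus strand) was detected as often at 10 mg/kg (40 cells) as in PBS cells (39 cells), but at other levels. Its lowest, median and highest FPKM were 0, 147 and 4927 in PBS cells, 0, 98.2 and 6396 at 1 mg/kg, and 0, 3.39 and 1790 at 10 mg/kg. An FPKM of 10 or more was reached in 31 cells for PBS, 25 at 1 mg/kg and 17 at 10 mg/kg. The cells at 10 mg/kg thus held low values of Psmb2 where PBS cells held high ones, and the difference was -1.93.

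Psme2 (ENSMUSG00000079197, chr14:55587441-55591113, minus strand) had a lowest, median and highest FPKM of 0, 155 and 2873 in PBS cells, 0, 98.7 and 1507 at 1 mg/kg, and 0, 7.02 and 1496 at 10 mg/kg. It was detected in 42, 38 and 32 cells of these groups, and differed from PBS by -0.89 and -1.91. Its near copy Psme2b is 99.4% identical over 794 aligned bases and differed by -0.48 and -1.12, but reads may have been split between the copies. The partner subunit Psme1 had other values: it was found in 35, 34 and 35 cells and differed from PBS by 0.03 at either dose. Psme2 and Psme1 proteins build a shared ring, and the difference between the genes was not tested.

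The base subunit Psmd2 (ENSMUSG00000006998, chr16:20651652-20663414, plus strand) was found in 32 PBS cells, 28 cells at 1 mg/kg and 13 cells at 10 mg/kg, and was at -1.76 for 10 mg/kg. On plates 1 to 3 it was found in 11, 12 and 9 PBS cells and in 4, 5 and 4 cells at 10 mg/kg. Psmd2 too was named among members with 1 sign on all 3 plates, so this agreement is no added support. Its processed copies Gm5422 (96.4% identical over 2726 aligned bases) and Gm7642 (92.9% over 1814) may share its reads. Among the other members lower on all plates at 10 mg/kg were Psmd4 (-1.61), Psma1 (-1.47), Psma6 (-1.44), Psmc1 (-1.39), Psma3 (-1.30) and Psmb3 (-1.26). Of these, Psmc1, Psma3 and Psmb3 have processed copies that may share their reads. Psma6, an alpha subunit, had a median FPKM of 9.25 in PBS cells, 1.14 at 1 mg/kg and 0.871 at 10 mg/kg, from lowest values of 0 to highest values of 1235, 2919 and 2385. Its highest cells were those of the ripasudil groups, and the log2 ratio of mean FPKM was 0.23 at 10 mg/kg, the other direction. The same held for Psma3 (0.19) and Psmd7 (0.62). Without plate 3 Psmc1 was at -0.62. Psma7 (-1.14) was at -0.43 without plate 1, -1.78 without plate 2 and, in the other direction, 0.17 in cells with at least 2000 genes. Psmb4, a beta subunit (-1.09), was at -0.67 without plate 1. The members with a positive difference at 10 mg/kg were the base scaffold Psmd1 (0.21) and Psme1.

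By role, the alpha ring had a median difference of -0.75 at 1 mg/kg and -1.30 at 10 mg/kg, with 6 and 7 of its 7 genes lower. Of all compared genes 62.6% and 79.3% were lower, and a count of 2 in 3, as below, is near or under these shares. The 4 non-catalytic beta subunits were at -0.48 and -1.18, with 3 and 4 genes lower. The 3 catalytic subunits were at -0.73 and -0.77, with 2 and 3 genes lower. For the 6 ATPases the medians were -0.58 and -0.79, with 5 and 6 genes lower, and for the 3 base subunits -0.63 and -1.61, with 3 and 2 genes lower. The 7 compared lid subunits were at -0.40 and -1.03, with 6 and 7 genes lower. By particle, the 14 core subunits had medians of -0.74 and -1.18 and the 16 compared regulatory subunits -0.58 and -1.0. The difference between core and regulatory particle was not tested.

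The size of these differences depended on how the lower number of detected genes was treated. With a linear term for the log2 number of detected genes in the cell, the members' median was -0.21 at 1 mg/kg and -0.41 at 10 mg/kg, against 0.10 and 0.02 for all compared genes. As log2 ratios of mean FPKM, which a few cells with high values can set, the medians were 0.23 and -0.08, against 0.10 and 0.01. The low dose thus lay below PBS on the log scale and above it by the ratio of means. The part of the detected genes, of rod transcripts and of single cells with high values in the differences was not tested beyond these values. Without the cells with at least 3 rod markers the medians were -0.56 and -1.04. In cells with at least 2000 genes they were -0.09 and -0.49, against 0.10 and -0.14 for all compared genes. In such cells Psmd3 was at -2.02 for 1 mg/kg, and Psmc5, Psmb2 and Psme2 were at -1.29, -0.66 and -0.48 for 10 mg/kg.

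Between the doses, 26 of 35 members were lower at 10 mg/kg than at 1 mg/kg, against 72.1% of all compared genes. By 1 or more, 8 members were lower, against 7.97% of all compared genes, and none was higher, against 0.619%. The median was -0.57 for the members and -0.26 for all compared genes, and the members' plate medians were -0.71, -0.45 and -0.46. In cells with at least 2000 genes both medians were -0.22, so the members did not lie below all compared genes there. On all plates 10 members were lower, against 27.3%, and 2 were higher, against 5.03%. Among those lower on all plates, the lowest were Psmd2 (-1.53), Psma1 (-1.16) and Psmb2 (-1.12). Psmb1, a beta subunit (-1.25), was at -2.47, 0.52 and -1.87 on plates 1 to 3, and the lid subunit Psmd12 (-1.05) at 0.41, -1.79 and -1.68, so each had 1 plate with the other sign. Psmc5 (-1.34) was at -0.31 without plate 2 and -2.38 without plate 3, Psme2 (-1.02) at -0.09 without plate 1 and -1.79 without plate 3, and Psmd14 (-1.01) at -0.67 without plate 2. The 2 higher ones were Psmd1 (0.85) and Psmd3 (0.82), which at 1 mg/kg had been below PBS. Psmd1 was detected in 25 PBS cells, 14 cells at 1 mg/kg and 21 cells at 10 mg/kg, and its model overlaps those of Htr2b and Gm21972.

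The means of the standard catalytic subunits lay farther apart from each other than those of the groups, at 5.78 for Psmb6, 4.09 for Psmb5 and 2.34 for Psmb7 in PBS cells on the log2(FPKM + 1) scale. Psmb6 had a lowest, median and highest FPKM of 0, 131 and 4483 in PBS cells, 0, 10.5 and 2048 at 1 mg/kg, and 0, 12.6 and 1214 at 10 mg/kg. Psmb5 had medians of 6.18, 2.83 and 1.56 FPKM and Psmb7 of 0.440, 0.102 and 0.0940 FPKM in the same order. The order Psmb6, Psmb5, Psmb7 held in each group, on a scale per gene length. Psmb5 and Psmb6 have processed copies that may share their reads. Psmb6 differed from PBS by -0.93 and -1.01, a gap that came mostly from plate 3 (-2.96 and -2.20; without it 0.13 and -0.39), and by 1.09 in the other direction at 10 mg/kg in cells with at least 2000 genes. Psmb5 differed by 0.18 and -0.77, and by 1.07 and 0.40 in cells with at least 2000 genes. The inducible subunit Psmb10 differed by -0.36 and -0.56, and by 0.22 and -0.06 in such cells. All 3 standard catalytic subunits were found together in 17 PBS cells, 9 cells at 1 mg/kg and 11 cells at 10 mg/kg. No standard catalytic subunit was found in 1, 5 and 5 cells of these groups.

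Inducible partners were read beside the standard ones. Psmb5 was found with its partner Psmb8 in 76 of 140 cells, alone in 23, and Psmb8 alone in 23. Psmb6 was found without Psmb9 in 79 cells and with it in 39. For Psmb7 the inducible partner reached an FPKM of 1 in more cells: Psmb10 alone was found in 45 cells, Psmb7 alone in 15, both in 32 and neither in 48. Low values of Psmb7 lay mostly below this limit and those of Psmb10 on both sides of it. The count thus depends on the limit, and partners were not counted at a higher one. Psmb8 differed from PBS by -1.36 and -1.16, and by -1.34 and -0.06 as log2 ratios of mean FPKM. Psmb9 differed by -0.09 and -0.27, and by 0.66 and 0.53, the other direction, as log2 ratios of mean FPKM.

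**Figure D5:**
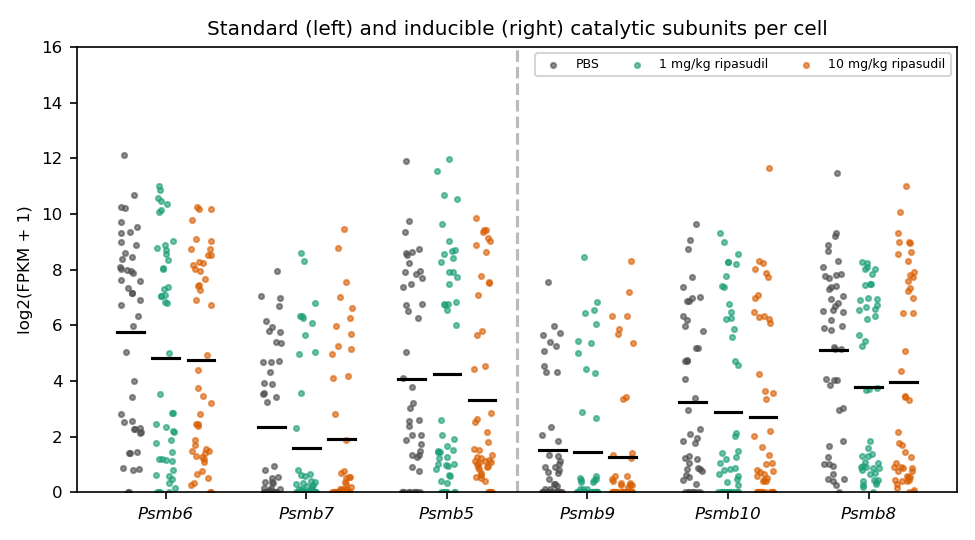
Level of the standard catalytic subunits Psmb6, Psmb7 and Psmb5 and of the inducible subunits Psmb9, Psmb10 and Psmb8 in each cell, as log2(FPKM + 1), with 1 point a cell, colours for the groups and a black bar at the mean. Values of each gene split into a high and a low cloud, and Psmb6 has the highest bars of the standard subunits in all 3 groups.

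The rest of the pathway, 19 compared genes from lists of assembly factors, further subunits, regulators, inducible subunits and ubiquitin supply, gave a median difference of -0.09 at 1 mg/kg and -0.56 at 10 mg/kg. At 1 mg/kg 13 of them were lower and 3 by 1 or more, and at 10 mg/kg 17 were lower and 3 by 1 or more. Of all compared genes, with medians of -0.15 and -0.41, 62.6% were lower and 6.40% by 1 or more at 1 mg/kg, and 79.3% and 16.9% at 10 mg/kg. The 3 genes at 10 mg/kg are 15.8% of the 19, near the share of all genes. The genes past that size were Psmb8 at both doses, as given above, the proteasome-bound deubiquitinase Uchl5 (-1.06 and -1.60) and Uba1, the enzyme that activates ubiquitin (-1.05 and -1.16). The ubiquitin precursor Ubb was found in each of the 140 cells and differed by 0.62 at 1 mg/kg and 0.00 at 10 mg/kg. Pomp, which helps core particles assemble, was at 0.29 and -0.86. Nfe2l1, the factor that induces proteasome genes when the particle is blocked, was detected in 12.1% of cells and was not compared.

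Promoter sequences were set beside the 8 members that lay below PBS on all plates at both doses, comparisons that share the PBS cells. Of these members, Psma6, Psmc5 and Psmd4 have no overlapping gene model and no processed copy in the table and have a promoter window from RefSeq on GRCm38.p6. The stretches below are the longest runs, within the 250 bases before the start, that no annotated exon covers, and carry the motif CCGGAA, read on either strand, in capitals. This motif is the core of sites bound by ETS family factors. The Psma6 stretch, chr12:55398575-55398774 on the plus strand, lies within the gene's longest model, before the first exon of a shorter one, and a further window at the outer start of Psma6 holds no match. The Psmc5 stretch is chr11:106256080-106256153 on the plus strand. The Psmd4 stretch is chr3:95042615-95042864, given on the minus strand, where the matches of both strands overlap. The corresponding stretches of Psmb3, Psmc1 and Psme2, which have copies or an overlapping model, held no match, though the full window of Psmc1 has one, and Psmd3 and Psmd7 were not searched.
Psma6: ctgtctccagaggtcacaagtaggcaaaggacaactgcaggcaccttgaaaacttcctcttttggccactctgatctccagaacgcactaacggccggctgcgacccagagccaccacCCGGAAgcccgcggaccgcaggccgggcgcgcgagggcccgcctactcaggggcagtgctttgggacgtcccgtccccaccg
Psmc5: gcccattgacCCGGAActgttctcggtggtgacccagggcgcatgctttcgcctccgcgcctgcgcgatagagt
Psmd4: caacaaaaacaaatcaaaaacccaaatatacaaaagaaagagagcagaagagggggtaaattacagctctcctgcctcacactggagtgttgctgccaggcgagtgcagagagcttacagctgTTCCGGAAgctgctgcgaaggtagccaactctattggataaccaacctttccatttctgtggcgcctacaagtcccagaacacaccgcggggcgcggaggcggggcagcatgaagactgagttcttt

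Windows of 300 bases, 250 before and 50 after the start, were found for 36 of the 43 members. CCGGAA was present on either strand in 18 of the 36 (50%), and in 16.7% of 27025 genes with such windows. The longer CCGGAAG, which contains it, was present in 13 members (36.1%) and 9.93% of genes. The other motifs searched, also on both strands, were nearer to the share of all genes. CCAAT was in 14 members (38.9%) and 41.1% of genes, and TGACNNNGC, a core of the antioxidant response element, in 6 members (16.7%) and 14.0% of genes. TGACTCA was in 1 member, Psmd9, and 5.95% of genes. TGACTCAGC, which contains TGACTCA, and TGACGTCA were in none of the members' windows and in 0.503% and 2.03% of genes. A match is a description of the letters in the window and shows no binding.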

How the data were processed

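Single retinal cells were profiled in 3 groups of 48 cells on 3 plates. The authors deposited FPKM values for 55364 genes with gene lengths in bases. The submitters' processing notes list GRCm38.p6, STAR 2.7.2b, featureCounts 1.6.1, cutadapt 1.16, Trimmomatic 0.36 and Trim Galore 0.4.4, with no roles or order. Whether strand was used is not given in the sources used here. Overlapping genes were therefore treated as not separable. FPKM times length summed to a constant in each cell, and its most frequent positive value was taken as 1 read. Within 0.01 read, 53.1% of positive values were whole in the median cell (range 37.5 to 70.5%), so no count model was used. The closest pair of cells correlated at 0.71. The labels name no molecular identifiers, so intervals cover counting error only.

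The proteasome genes, gene lists, comparisons and alternatives were chosen with earlier results of these data known. Levels were means of log2(FPKM + 1), and a difference was taken over pooled cells and within plates. Genes named were, per dose, the 10 lowest and 5 highest members among those with 1 sign on all 3 plates (3 and 3 between doses), the catalytic subunits, the most and least detected of each role, and 3 context genes. Others were named after their values were seen. A few genes are not reported here. Members were searched for copies at 90% identity over 200 bases: 15 had a processed copy and 11 an overlapping model, 21 in all. The 15 were Psma2, Psma3, Psma4, Psma5, Psmb1, Psmb3, Psmb5, Psmb6, Psmc1, Psmd2, Psmd11, Psmd14, Psme1, Psme2 and Psme2b. The calculations were tested on simulated data. Python 3.11.15, numpy 2.4.6, pandas 2.3.3, scipy 1.17.1 and matplotlib 3.10.9 were used.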

Additional observations from a re-analysis of the deposited data

How the results depend on the processing

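For the median differences at 1 mg/kg, 10 mg/kg and between doses (-0.55, -1.09, -0.57), a pseudocount of 0.1 gave -0.87 and -1.31 for the doses against PBS, and a pseudocount of 10 gave -0.21, -0.58 and -0.36. The log2 ratio of mean FPKM gave 0.23, -0.081 and -0.34. By this ratio 12 and 20 members were lower at the doses against PBS, against 44.4% and 49.5% of all compared genes, and 2 and 4 members by 1 or more. In cells with at least 2000 genes the medians were -0.089, -0.49 and -0.22, without a filter on low values -0.97 at 10 mg/kg and -0.37 between doses, and with every cell -0.90 at 10 mg/kg. Adjustment for detected genes gave -0.21, -0.41 and -0.36, and with plate as a further term -0.19, -0.45 and -0.40; the number lower by 1 or more was then 2, 4 and 3 in either fit. That number was 13 at 1 mg/kg with a pseudocount of 0.1, 0, 4 and 0 with a pseudocount of 10, and 2 and 8 at the doses in cells with at least 2000 genes. Without members that overlap another model or have copies, 16 members were left, of which 15, 16 and 12 were lower. Of all compared genes 62.6%, 79.3% and 72.1% were lower. By 1 or more, 10 (10 mg/kg) and 4 (between doses) of the 16 members were lower. For the changed pseudocounts, the ratio, the adjustments and the cells with at least 2000 genes, the share of all compared genes lower by 1 or more was not computed.

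The labels give plates, not animals, as the shared number. With plate as a replicate block the medians were -0.56, -1.08 and -0.56. Then 29, 33 and 26 members were lower, against 63.1%, 79.7% and 72.0% of all compared genes, and 6, 20 and 8 members by 1 or more. Leaving out 1 plate at a time gave medians of -0.60 to -0.52 at 1 mg/kg, -1.10 to -0.93 at 10 mg/kg and -0.62 to -0.46 between doses, with 7 to 10, 14 to 19 and 5 to 10 members lower by 1 or more. Without plate 2, 10 members were lower by 1 or more at 1 mg/kg, and without plate 1, 5 were between doses. Shares of all compared genes lower by 1 or more were not computed for the settings by plate.

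The median number of members detected per cell differed from PBS by -8 at both doses. At 1 and 10 mg/kg it differed by -4 and -3 counting any read and -6 and -9 for an FPKM of 10 or more. Thinned and counted from 1 read on, another threshold, it differed by -5.5 and -8. It differed by -1.5 and -4 in cells with at least 2000 genes and -8.5 and -8 with every cell. Without cells under 300000 reads it was -8.5 and -8.5, without rod cells -7 and -7, and per 1000 genes -0.58 and -0.072. Without 1 plate it was -7.5 in each case at 1 mg/kg and -10.5 to -4.5 at 10 mg/kg. The members' share of FPKM differed by 0.0532, -0.0857 and -0.139 percentage points. It was -0.173 at 10 mg/kg as a mean, -0.101 at 1 mg/kg and 0.0630 between doses in cells with at least 2000 genes. Without 1 plate it was -0.0746 (plate 1) to 0.135 at 1 mg/kg and -0.206 to -0.0200 (plate 1) between doses.

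For single genes, a changed sign was listed only for members named by rule whose difference was 1 or more in size. As log2 ratios of mean FPKM these were Psmd4 at 1 mg/kg (0.32), Psma3 (0.19), Psma6 (0.23) and Psmd7 (0.62) at 10 mg/kg and Psmd14 between doses (0.13). In cells with at least 2000 genes they were Psmc5 at 1 mg/kg (0.40), and Psma7 (0.17) and Psmb6 (1.09) at 10 mg/kg. Smaller differences changed sign in such cells too, among them Psmb2 (0.73) at 1 mg/kg and Psmb5 (0.40) and Psma4 (0.34) at 10 mg/kg. The cause was not tested. The fits on standard subunits, without shallow cells, with both adjustments and per 1000 genes were chosen after seeing the data.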
